A study of Ovis aries with 6 samples.

Results

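The genes described here build the entry of proteins into the endoplasmic reticulum and their transport out of it: the signal recognition particle and its receptor, the translocon, signal peptidase, oligosaccharyltransferase, the COPI and COPII vesicle coats, and cargo and retrieval receptors. They were listed by name, 53 genes in 7 classes, and looked up among 26067 features with measurements in 6 sheep (Ovis aries) libraries labelled as pituitary. A row was found for 51 of the 53. SRPRB, a subunit of the signal recognition particle receptor, and SEC61G, a small translocon subunit, had no row under those names and were not analysed here. Per the labels, full-length complementary DNA was made from total RNA and amplified before Nanopore sequencing. The study's design names 3 small-tailed Han sheep as a high-reproduction group and 3 Wadi sheep as a low-reproduction group, all healthy and of similar body composition. The libraries are labelled C1 to C6, with no breed, age, sex or treatment for any of them. No breed comparison was made, and each library stands by itself, with no replicates. Lists of 6 values run from C1 to C6.

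Proteins destined for secretion carry a signal peptide that the signal recognition particle binds as it leaves the ribosome. The particle docks at its receptor on the endoplasmic reticulum, the nascent chain passes through the Sec61 channel, signal peptidase removes the signal peptide, and oligosaccharyltransferase attaches sugar chains to asparagine residues. COPII-coated vesicles carry cargo from the endoplasmic reticulum towards the Golgi apparatus and COPI-coated vesicles return escaped residents, so hormone-secreting cells of the anterior pituitary depend on the whole route. Several of its parts exist as paralogs, encoded by separate genes.

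Levels are counts per 1000000 gene counts of the library (CPM), and the libraries held 1981644 to 2732911 gene counts. Intervals are 95% intervals for counting error only, with each read taken as an independent draw. Reads of amplified complementary DNA are not independent molecules, so these intervals can be too narrow and the p-values too small. The labelled tissue was checked first. The 7 hormone genes PRL, GH, CGA, LHB, FSHB, TSHB and POMC took 0.0139, 0.00472, 0.00503, 14.2, 30.0 and 4.71% of the counts, and in C1, C2 and C3 the pituitary factor POU1F1 had 0 counts, as had TSHB. POMC was also at 0 in C1, and FSHB was at 0 in C2 and C3. All 8 neuron markers looked up had a row, and their summed level was 5445, 5148, 4925, 502, 708 and 334 CPM. The 9 markers of cerebellar granule and Purkinje cells summed to 4114, 4093, 3622, 26.7, 12.0 and 98.4 CPM, with PAX6 and PCP2 at 0 in C4 and ZIC2 and PCP2 at 0 in C5. Oligodendrocyte markers, of which 3 of 6 had a row, were highest in C6, at 169.8, 71.4, 119, 6.13, 1.65 and 3221 CPM. The sums were 327, 354, 443, 20.1, 13.6 and 495 CPM for astrocytes, 83.6, 204, 175, 1443, 163 and 1044 CPM for fibroblasts and pericytes, 6.43, 13.9, 20.4, 165, 25.2 and 95.4 CPM for endothelium and 129, 149, 116, 398, 415 and 715 CPM for immune cells. The tissue label is thus not borne out by hormone transcripts in C1, C2 and C3. These markers move with many of the results below, and their part in them was not tested. In bulk tissue, fewer cells of a type and less RNA per cell cannot be told apart.

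Of the 50 secretory pathway genes that could be tested across the 6 libraries, 26 were highest in C5, against 11.8% of all genes tested. C5 also held the largest share of hormone transcripts. Of 51 genes with a row, 50 reached the minimum of 60 counts for a test, and SEC24C, a COPII cargo adaptor with counts of 6, 3, 3, 14, 18 and 14, did not. A gene was called as differing between libraries when its counts departed from the library totals (chi-square test, Benjamini-Hochberg adjusted p under 0.05 over all 13248 genes tested) and its highest level was at least 2 times its lowest. That held for 38 of the 50, against 80.9% of all genes tested, so the number that differed does not set these genes apart. Here and below, all genes tested means every feature with at least 60 counts, also those without a gene name. Of the 26067 features, 21457 had a gene name. The share with the highest level in C5 was above that of all genes. Called genes with their highest level in C5 numbered 23 of 50, against 9.42% of all genes tested. For C1, C2 and C3 the numbers were 2, 4 and 1, against 17.1, 12.3 and 13.6% of all genes, and for C4 and C6 they were 3 and 5, against 11.4 and 17.0%. The largest adjusted p among the called genes was 0.00166, for RPN2.

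With C1, C2 and C3 left out, 27 of 48 tested genes were highest in C5, against 21.6% of all genes. The 7 hormone genes occupy up to 30.0% of a library, which lowers the CPM of every other gene there. Scaled to the total without those genes, 36 of the 50 were highest in C5, against 23.5% of all genes. The number was 30 with edgeR TMM factors, 34 with DESeq2 size factors and 31 in the authors' TPM, against 18.8, 21.6 and 21.0% of all genes. The highest library was the same on all 5 scales for 29 genes, 23 of them highest in C5. It changed with the scale for 12 called genes, SEC61A2, SSR2, RPN1, RPN2, DDOST, STT3B, COPG1, SAR1B, SEC23A, SEC24A, SEC24B and KDELR1.

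**Figure D1:**
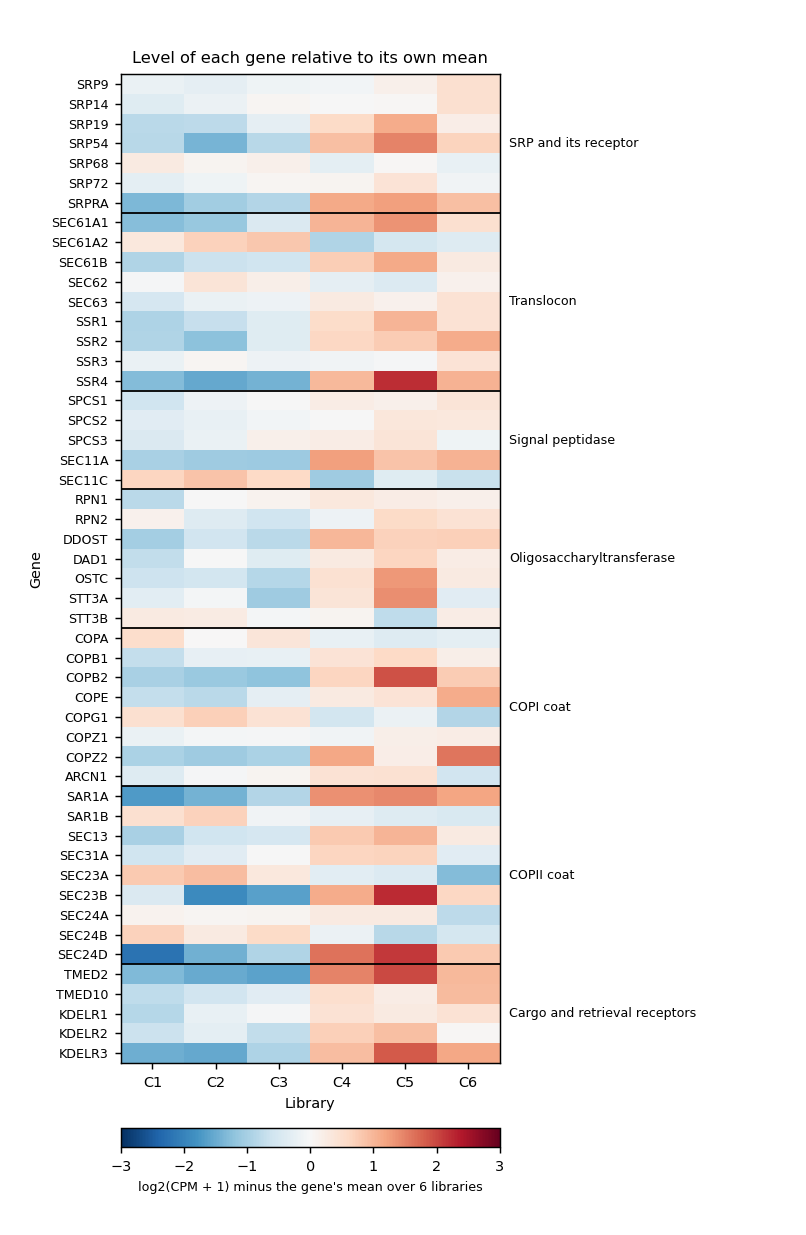
Level of each of the 50 tested genes in each library, as log2(CPM + 1) minus the gene's mean over the 6 libraries, with red above and blue below that mean. Rows are grouped by class, and most rows turn from blue in C1 to red in C5. Among the rows that run the other way are SRP68, SEC61A2, SEC11C, COPA, COPG1, SAR1B, SEC23A and SEC24B. Each of these is lower in every one of C4, C5 and C6 than in every one of C1, C2 and C3.

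Relative to each gene's own mean over the libraries, on the log2(CPM + 1) scale, the median of the 50 genes was -0.61, -0.25, -0.26, 0.40, 0.44 and 0.30. The median of all genes tested was 0.13, 0.15, 0.21, -0.08, -0.39 and -0.05. The secretory genes lay below the median gene in C1, C2 and C3 and above it in C4, C5 and C6, and the distance was widest in C5. With hormone genes taken out of the total, the median of all genes was -0.03 in C5 and that of the 50 genes 0.82. The 50 genes are described by these medians, with no test of the list.

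**Figure D2:**
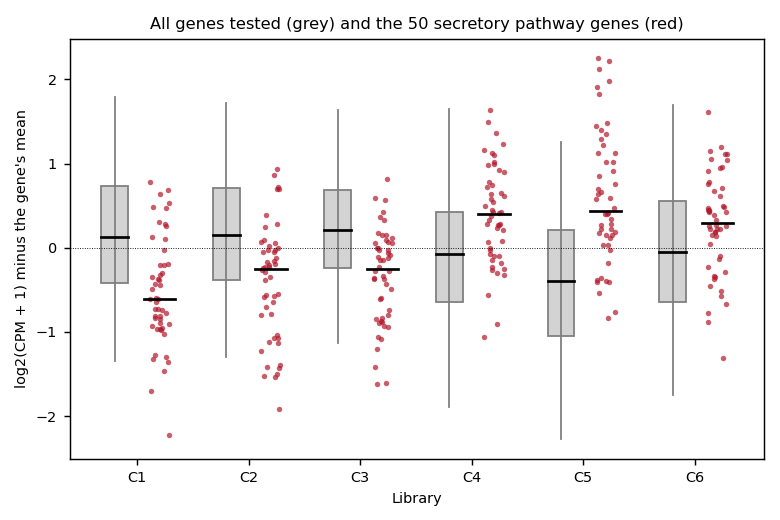
For each library, log2(CPM + 1) minus the gene's mean over the 6 libraries. Grey boxes span the quartiles and grey lines the 5th to 95th percentiles of all 13248 genes tested, red points are the 50 secretory pathway genes, and black bars are medians, which for the red points lie below the grey bar in C1, C2 and C3 and above it in C4, C5 and C6.

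The signal recognition particle had subunits with ratios from 1.49 to 8.93 in CPM. Of 7 tested genes of the particle and its receptor 3 were called, against 80.9% of all genes. All 3 were highest in C5, against 9.42% of all genes called and highest there. SRP54, the subunit that binds the signal peptide and hydrolyses GTP, was at 6.43, 4.03, 6.43, 23.6, 36.0 and 20.2 CPM. The low values of SRP54 rest on 15, 11, 17, 54, 87 and 40 counts, and its ratio of highest to lowest library was 8.93-fold (95% interval 4.75 to 18.6), or 5.59 without C2 and 5.87 without C5. SRPRA, the receptor subunit that pairs with SRP54 at the membrane, stood at 32.2, 40.6, 45.4, 185, 198 and 159 CPM, with every one of C4, C5 and C6 above every one of C1, C2 and C3, and a ratio of 6.14-fold (95% interval 4.81 to 7.94). SRP19, needed to assemble SRP54 onto the RNA of the particle, was at 29.2, 29.6, 42.8, 78.4, 114 and 59.5 CPM, a ratio of 3.93-fold (95% interval 3.00 to 5.20).

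The other 4 subunits departed from the library totals as well, by less than 2-fold in CPM. SRP14, which with SRP9 forms the domain that pauses elongation, was at 201, 229, 269, 255, 265 and 360.3 CPM and SRP9 at 34.3, 32.6, 35.9, 37.2, 43.8 and 55.5 CPM, ratios of 1.80 and 1.70 with adjusted p of 1.33e-23 and 0.00146 (chi-square test). The pair SRP68 and SRP72 binds the RNA of the particle as a heterodimer. SRP72 was at 57.9, 65.5, 74.2, 75.3, 94.6 and 66.6 CPM, a ratio of 1.63. SRP68 was highest in C1, at 58.7, 52.0, 54.5, 39.4, 50.01 and 41.4 CPM, with a ratio of 1.49-fold (95% interval 1.13 to 1.97) and an adjusted p of 0.0269 (chi-square test). None of these 4 reached a ratio of 2. With DESeq2 size factors and with the total without hormone genes SRP72 did, at 2.10 and 2.33, and in the authors' TPM all 4 did, at 2.75 to 4.14. On the CPM scale the ratio intervals of SRP54 and SRP19 lay above those of these 4 subunits of the same particle. The interval of the receptor subunit SRPRA did so too. The summed level of the class was 419, 454, 529, 694, 802 and 762 CPM, a ratio of 1.91-fold (95% interval 1.77 to 2.07).

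In the translocon, 6 of 9 tested genes were called, against 80.9% of all genes. The highest level of 4 was in C5, of 1 in C6 and of 1 in C3, against 9.42, 17.0 and 13.6% of all genes. SEC61A1 encodes the main channel-forming alpha subunit, and was at 12.4, 13.9, 23.1, 64.8, 81.8 and 44.4 CPM, a ratio of 6.58-fold (95% interval 4.44 to 10.1). SEC61B, the beta subunit, followed the same order at 70.3, 84.5, 87.4, 224, 292 and 160.0 CPM, a ratio of 4.15-fold (95% interval 3.50 to 4.95). SEC61A2, the second alpha subunit gene, ran against both, at 89.6, 117, 128, 38.1, 49.6 and 55.5 CPM, with each of C4, C5 and C6 below each of C1, C2 and C3 and a ratio of 3.37-fold (95% interval 2.65 to 4.31). In the authors' TPM that order was lost, at 8.42, 11.5, 16.3, 8.53, 16.8 and 11.4 TPM, a ratio of 1.99. In the RefSeq table SEC61A2 overlaps NUDT5, which was at 84.0, 71.7, 55.6, 17.1, 13.6 and 21.2 CPM, and whether reads of the pair were split is not given in the sources used here.

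The accessory subunits of the translocon varied by gene. SSR4, the delta subunit of the TRAP complex that sits beside the channel, had the widest called range of the class, at 37.7, 31.8, 34.8, 187, 442 and 196 CPM, a ratio of 13.9-fold (95% interval 11.2 to 17.5). The ratio was 6.17 without C5, and SSR4 also differed among C4, C5 and C6 alone, at 2.37-fold. SSR2, the beta subunit of TRAP, was highest in C6, at 15.0, 11.7, 22.3, 44.6, 49.6 and 63.6 CPM, a ratio of 5.43-fold (95% interval 3.66 to 8.28). SSR1, the alpha subunit, had only 4, 6, 8, 15, 23 and 12 counts, a ratio of 5.54-fold (95% interval 1.89 to 22.0). The gamma subunit SSR3 stayed within 1.55-fold, at 120.1, 145, 125, 129.6, 136 and 186 CPM, so that members of this 4-subunit complex did not share a range. SEC62 and SEC63, which assist the channel in importing short or poorly inserted proteins, were at 485, 647, 557, 413, 373 and 542 and 101, 123.3, 129, 173, 155 and 194 CPM, within 1.73-fold and 1.93-fold. SEC63 passed the ratio of 2 with counts thinned to the smallest library (2.05) and with hormone genes out of the total (2.20). In TPM SEC62, SEC63 and SSR3 passed it, at 2.12, 2.28 and 2.98. The summed level of the translocon was 933, 1176, 1109, 1279.9, 1589 and 1448 CPM, a ratio of 1.70-fold (95% interval 1.62 to 1.80), and 2.43 with hormone genes out of the total.

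**Figure D3:**
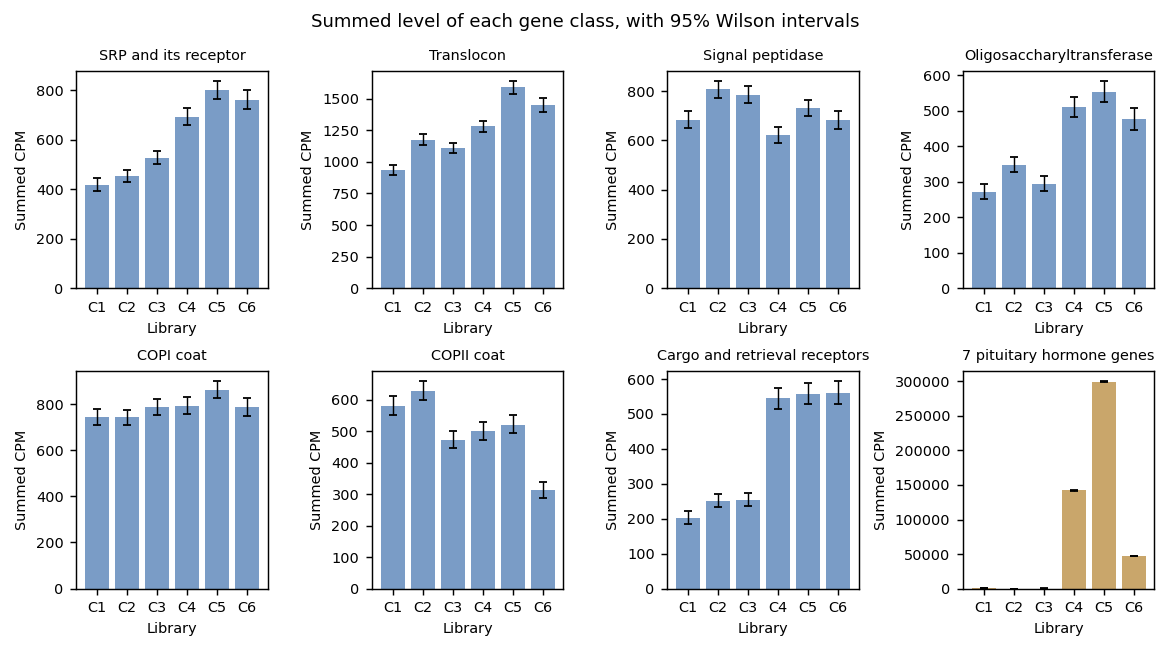
Summed CPM of the genes of each class in each library, with 95% Wilson intervals for counting error, and in the last panel the 7 pituitary hormone genes. Cargo and retrieval receptors, oligosaccharyltransferase, signal recognition and translocon genes are lower in the first 3 libraries than in the last 3. Signal peptidase and COPI sums stay within 1.30-fold and 1.16-fold, and the COPII sum is lowest in C6.

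In signal peptidase 2 of 5 tested genes were called, against 80.9% of all genes. These were the 2 catalytic subunits, with opposite directions in CPM, and the accessory subunits differed by less than 2-fold. SPCS1, SPCS2 and SPCS3 are the accessory subunits, and none of these 3 was called, although each departed from the library totals (chi-square test, adjusted p of 1.80e-16, 3.49e-14 and 2.24e-11). SPCS1 was at 94.8, 129, 144, 169.8, 161 and 189 CPM, SPCS2 at 122, 132, 146, 155, 197 and 195 CPM and SPCS3 at 81.0, 96.6, 122.98, 128, 145 and 100.4 CPM, with ratios of 2.00 (just below the threshold before rounding), 1.61 and 1.80. All 3 passed a ratio of 2 with DESeq2 size factors (2.18, 2.07 and 2.31), with hormone genes out of the total (2.42, 2.30 and 2.56) and in TPM (4.30, 3.02 and 2.24). The catalytic subunit SEC11A was highest in C4, at 10.7, 9.88, 9.84, 53.0, 40.5 and 46.4 CPM, a ratio of 5.38-fold (95% interval 3.50 to 8.57). The alternative catalytic subunit SEC11C was highest in C2 and lowest in C4, at 375, 439, 363, 115, 187 and 151 CPM, a ratio of 3.81-fold (95% interval 3.33 to 4.37). In the authors' TPM the ratio of SEC11C was 1.75, below the threshold. The sum over the class, 684, 807, 785, 621, 731 and 682 CPM, varied less than either catalytic gene, with a ratio of 1.30-fold (95% interval 1.22 to 1.39). The ratio of the sum was 1.45 with DESeq2 size factors, 1.53 with hormone genes out of the total and 2.02 in TPM.

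All 7 oligosaccharyltransferase genes were called, against 80.9% of all genes, 4 of them highest in C5, 2 in C4 and 1 in C1. OSTC, the subunit that ties the STT3A form of the enzyme to the translocon, was at 31.7, 33.3, 26.9, 67.4, 122 and 59.0 CPM, a ratio of 4.54-fold (95% interval 3.49 to 5.97), or 2.51 without C5, and was 2.07-fold higher in C5 than in C6. DDOST, a shared subunit, was at 33.9, 46.8, 39.7, 140.1, 114 and 116 CPM, a ratio of 4.13-fold (95% interval 3.22 to 5.36). DAD1, another shared subunit, named for the apoptosis seen on its loss, was at 67.8, 112, 87.8, 138, 178 and 134 CPM, a ratio of 2.62-fold (95% interval 2.18 to 3.17). These 3 were higher in each of C4, C5 and C6 than in each of C1, C2 and C3.

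The ribophorin genes, whose products were first described as ribosome-binding proteins of the rough endoplasmic reticulum, had ratios nearer to the threshold. RPN1 was at 32.2, 56.7, 61.7, 71.8, 66.5 and 63.6 CPM, a ratio of 2.23-fold (95% interval 1.69 to 2.97) that dropped to 1.27 without C1, so that its call rests on that library. RPN2 had few counts, 34, 27, 22, 27, 49 and 36, and a ratio of 2.43-fold (95% interval 1.44 to 4.23). STT3A encodes the catalytic subunit that glycosylates chains during translocation. It had 6, 9, 3, 11, 26 and 5 counts, a ratio of 9.47-fold (95% interval 2.90 to 48.9) of C5 to C3, and falls under the minimum of 60 counts when any library is left out. STT3B encodes the subunit that acts on sites skipped during translocation, and was lowest in C5, at 87.9, 85.6, 69.2, 76.2, 42.2 and 84.3 CPM, a ratio of 2.09-fold (95% interval 1.64 to 2.67). STT3B was under the ratio of 2 without C5 (1.27), with TMM factors (1.80), with DESeq2 size factors (1.62) and with hormone genes out of the total (1.47). The class summed to 271, 348, 295, 510.4, 554 and 477 CPM, a ratio of 2.05-fold (95% interval 1.86 to 2.25). That ratio was 1.88 without C1, 1.89 without C5 and 1.99 with thinned counts, under the threshold. In the authors' TPM the order was reversed, at 653, 648, 422, 445, 441 and 373 TPM, with STT3B at 491, 510.4, 349, 229, 122 and 207 TPM.

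Of the 8 COPI genes, 6 were called, against 80.9% of all genes. The highest level of 3 was in C5, of 2 in C6 and of 1 in C2, against 9.42, 17.0 and 12.3% of all genes. COPI is a complex of 7 subunit types that coats vesicles moving within the Golgi apparatus and back to the endoplasmic reticulum. COPB2, the beta-prime subunit that binds retrieval signals, was at 9.00, 8.05, 7.57, 29.8, 73.2 and 32.3 CPM, a ratio of 9.67-fold (95% interval 6.07 to 16.2), or 4.27 without C5, and was 2.46-fold higher in C5 than in C4. COPB1, the beta subunit, was at 74.6, 105, 105, 166, 188 and 141 CPM, a ratio of 2.51-fold (95% interval 2.11 to 3.01) that was 1.79 without C1. COPE, the epsilon subunit, was highest in C6, at 43.3, 41.0, 59.4, 87.5, 96.3 and 158 CPM, a ratio of 3.85-fold (95% interval 3.10 to 4.83), or 2.35 without C6.

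Other COPI subunits had other orders. COPG1, a gamma subunit, was highest in C2 and lowest in C6, at 178, 211, 172, 86.2, 112 and 68.6 CPM, a ratio of 3.08-fold (95% interval 2.55 to 3.74), although in TPM its highest library was C5. COPA, the alpha subunit, was at 297, 209, 264, 176, 157 and 169 CPM, with C4, C5 and C6 below C1, C2 and C3 and a ratio of 1.90-fold (95% interval 1.67 to 2.16), under 2. ARCN1, the delta subunit, was at 74.2, 95.5, 103, 131, 135 and 65.1 CPM, a ratio of 2.07-fold (95% interval 1.68 to 2.56) that was 1.82 without C6. COPZ1, a zeta subunit, was at 55.7, 62.2, 63.2, 59.97, 72.7 and 75.2 CPM. In CPM it passed neither criterion, with a ratio of 1.35-fold (95% interval 1.06 to 1.72) and an adjusted p of 0.0867 (chi-square test). In the authors' TPM the ratio of COPZ1 was 3.30, above 2. COPZ2, the other zeta subunit, was highest in C6, at 12.0, 11.0, 12.1, 55.2, 27.7 and 76.2 CPM, a ratio of 6.94-fold (95% interval 4.67 to 10.6). The summed COPI level was at 744, 743, 787, 791, 861 and 785 CPM, a ratio of 1.16-fold (95% interval 1.09 to 1.23). The ratio of the sum was 1.51 with DESeq2 size factors and 1.65 with hormone genes out of the total. In CPM, transcripts for subunits of the same coat thus ran in opposite directions across the libraries.

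Every one of the 9 tested COPII genes was called, 6 highest in C5, 2 in C2 and 1 in C1, against 80.9% of all genes called and 9.42% called and highest in C5. SAR1 is the GTPase that starts coat assembly, SEC23 and SEC24 form the inner coat, with SEC24 choosing the cargo, and SEC13 and SEC31 form the outer coat. SEC13, which is also part of the nuclear pore, was at 24.01, 31.5, 33.7, 82.7, 98.4 and 57.5 CPM, a ratio of 4.10-fold (95% interval 3.05 to 5.58). Its partner SEC31A was at 15.4, 18.7, 23.8, 38.1, 38.4 and 18.7 CPM, a ratio of 2.49-fold (95% interval 1.68 to 3.77), and among C4, C5 and C6 it was 2.06-fold lower in C6 than in C5.

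The inner coat genes split by paralog. SEC23A was highest in C2 and lowest in C6, at 254, 282, 185, 117, 111 and 59.0 CPM, a ratio of 4.77-fold (95% interval 3.92 to 5.85), or 2.54 without C6. SEC23B, the paralog affected in congenital dyserythropoietic anaemia in humans, had 9, 2, 3, 30, 73 and 18 counts, a ratio of 41.2-fold (95% interval 11.0 to 347) of C5 to C2 that was 26.6 without C2 and 17.9 without C5, and it was 3.32-fold higher in C5 than in C6. SAR1B was highest in C2, at 149, 173, 98.4, 88.9, 81.0 and 77.2 CPM, a ratio of 2.24-fold (95% interval 1.86 to 2.70) that was 1.93 without C2, and 1.70 in TPM with C4 as the highest library. SAR1A had 1, 2, 4, 25, 28 and 19 counts, and its ratio of C5 to C1, 27.0-fold (95% interval 4.46 to 1104), rests on a single count in C1 and was 15.8 without it. In CPM, SAR1A and SEC23B were higher in each of C4, C5 and C6 than in each of C1, C2 and C3, and SAR1B and SEC23A lower.

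The SEC24 cargo adaptors also differed from each other. SEC24A was close to level in 5 libraries and low in C6, at 100.3, 97.3, 98.4, 113, 114 and 54.0 CPM, a ratio of 2.10-fold (95% interval 1.68 to 2.66) that was 1.17 without C6. SEC24B was highest in C1 and lowest in C5, at 30.4, 22.7, 28.0, 16.2, 9.92 and 12.6 CPM, a ratio of 3.07-fold (95% interval 1.91 to 5.10). SEC24D had 0, 2, 4, 31, 47 and 14 counts, and a count of 0 in C1 allows up to 1.29 CPM, taken as 3 counts. The level of SEC24D was 19.4 CPM in C5, and its ratio to C2, which held 2 counts, was 26.5-fold (95% interval 6.95 to 226). Against the 3 counts taken as the limit for C1 it is at least 15.1-fold higher in C5. SAR1B and SEC24A overlap each other in the RefSeq table, so their counts are uncertain where reads were split. The class sum, 580.2, 628, 472, 499.9, 521 and 312 CPM, was lowest in C6, with a ratio of 2.01-fold (95% interval 1.84 to 2.21). It was 1.86 without C2 and 1.33 without C6.

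All 5 cargo and retrieval receptors were called, against 80.9% of all genes, 3 highest in C5 and 2 in C6, and for all 5 each of C4, C5 and C6 was above each of C1, C2 and C3. TMED2 and TMED10 encode p24 proteins that load cargo into coated vesicles. TMED2 was at 3.43, 2.93, 2.65, 30.2, 43.0 and 20.7 CPM, on 8, 8, 7, 69, 104 and 41 counts, a ratio of 16.2-fold (95% interval 7.60 to 41.4). TMED10 was highest in C6, at 101, 117, 137, 246, 203 and 337 CPM, a ratio of 3.33-fold (95% interval 2.86 to 3.87). The KDEL receptors return resident chaperones from the Golgi apparatus. KDELR3 was at 3.86, 3.66, 6.05, 24.5, 46.7 and 28.8 CPM, a ratio of 12.8-fold (95% interval 6.69 to 27.3), or 7.86 without C5, KDELR2 at 72.0, 92.9, 67.4, 188, 213 and 117 CPM, a ratio of 3.17-fold (95% interval 2.67 to 3.78), and KDELR1 at 22.7, 35.5, 40.9, 56.5, 50.4 and 56.5 CPM, a ratio of 2.49-fold (95% interval 1.78 to 3.52). The call of KDELR1 was lost without C1 (1.59). The class sum was 203, 252, 254, 545, 557 and 559.6 CPM, with the widest ratio of the 7 classes, 2.75-fold (95% interval 2.47 to 3.07), while C4, C5 and C6 differed by 1.03-fold.

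A paralog's share of the reads of its pair is independent of how libraries are scaled to each other, and it differed between libraries in every pair. Shares of reads are compared between libraries only and not read as relative amounts of the paralogs, since they are not per length. SEC61A1 made up 12.2, 10.6, 15.2, 63.0, 62.3 and 44.4% of the reads of SEC61A1 and SEC61A2. Its intervals reached at most 19.1% in C1, C2 and C3 and began at 37.7% or above in C4, C5 and C6, and C6, at 37.7 to 51.4%, lay below C4 and C5. SEC11A made up 2.78, 2.20, 2.64, 31.5, 17.8 and 23.5% of the reads of SEC11A and SEC11C, with 27.1 to 36.3% in C4 and 14.8 to 21.2% in C5. In both pairs C4, C5 and C6 lay above C1, C2 and C3 beyond their intervals.

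In the COPII coat SAR1A held 0.287, 0.422, 1.52, 11.0, 12.5 and 11.0% of the reads of the SAR1 pair, with overlapping intervals in C4, C5 and C6 (7.54 to 15.7% in C4, 8.79 to 17.5% in C5, 7.19 to 16.6% in C6). SEC23B held 1.50, 0.259, 0.611, 10.1, 21.4 and 13.3% of the SEC23 reads and was highest in C5, 17.4 to 26.1%, with an interval that overlapped that of C6, 8.60 to 20.1%, but not that of C4, 7.14 to 14.0%. The difference between its highest and lowest share, 21.1 percentage points, was 13.1 without C5. Among the SEC24 adaptors, SEC24B held 22.8, 18.6, 21.7, 10.9, 6.59 and 15.6% and SEC24D 0, 0.601, 1.17, 9.12, 12.9 and 8.75%. The 0% of SEC24D in C1 allows a share of up to 0.965%. SEC24A held 75.2, 79.9, 76.2, 75.9, 75.5 and 66.9%, where only the intervals of C2 and C6 did not overlap, and SEC24C, on few counts, 1.93, 0.901, 0.880, 4.12, 4.95 and 8.75%. The widest difference fell from 13.0 to 4.64 percentage points for SEC24A and from 7.87 to 4.07 for SEC24C without C6.

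The remaining pairs did not follow the same lines. COPZ2, the second zeta subunit of COPI, held 17.7, 15.0, 16.1, 47.9, 27.6 and 50.3% of the reads of the COPZ pair. It was high in C4 and C6, while C5, at 22.3 to 33.5%, overlapped C1, at 12.6 to 24.4%, and lay above C2, at 10.7 to 20.6%, and C3, at 11.6 to 21.8%. C4 and C6 were also the libraries with the highest summed fibroblast and pericyte markers and the highest summed endothelium markers. The part of those cells was not tested. STT3A stood apart in C5, with 2.84, 3.70, 1.61, 5.95, 20.3 and 2.91% of the STT3 reads, where its interval of 14.3 to 28.1% lay above that of every other library. Without C5 the STT3A shares were within 4.33 percentage points, with overlapping intervals. Among the KDEL receptors KDELR3 held 3.91, 2.77, 5.30, 9.12, 15.0 and 14.2%, highest in C5 and C6, KDELR1 23.0, 26.9, 35.8, 21.0, 16.2 and 27.9%, highest in C3 with an interval that overlapped those of C2 and C6, and KDELR2 73.0, 70.4, 58.9, 69.9, 68.7 and 57.9%. The widest difference of KDELR1, 19.5 percentage points, was 11.7 without C3.

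**Figure D4:**
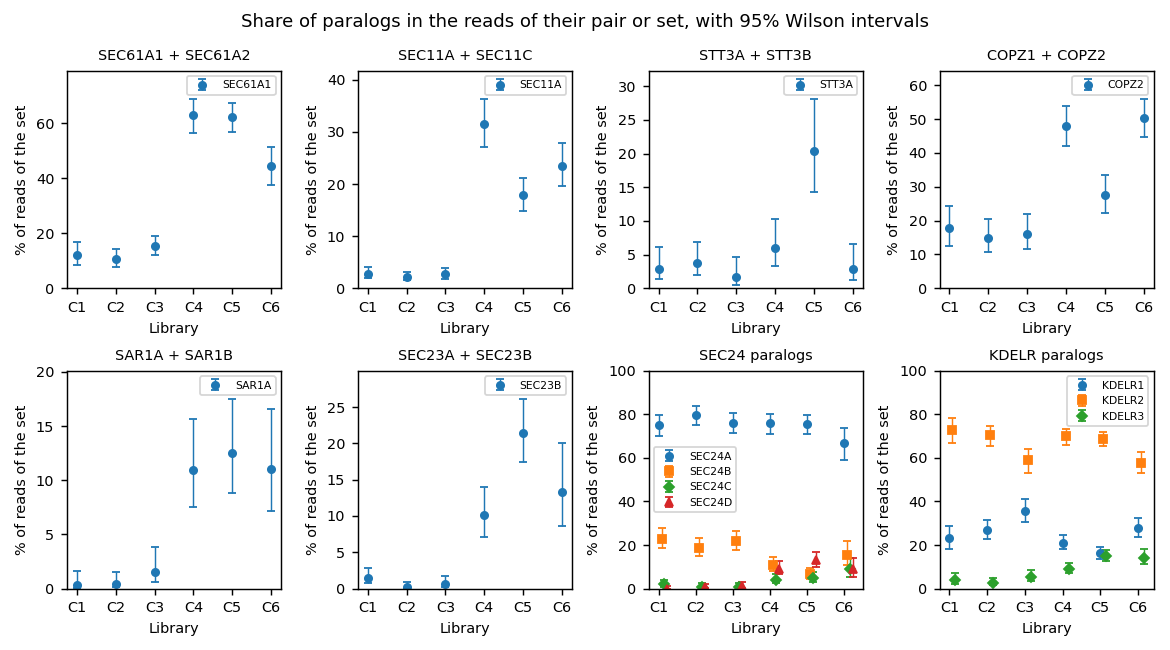
Share of the reads of a paralog pair or set held by the named gene in each library, in percent, with 95% Wilson intervals for counting error. The vertical scales differ between panels. SEC61A1, SEC11A, SAR1A and SEC23B are near the bottom of their panels in C1, C2 and C3 and higher in C4, C5 and C6, and STT3A is high only in C5 among the 6 libraries.

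Read as shares of the authors' TPM, which adjusts for length, the pairs kept the direction of the difference except in the SEC24 set. SEC61A1 held 7.57, 6.77, 8.99, 49.8, 40.6 and 29.3% of the TPM of its pair, SEC11A 1.76, 1.37, 1.70, 22.4, 11.9 and 16.2%, SEC23B 1.93, 0.334, 0.584, 6.55, 14.3 and 10.1% and SAR1A 0.521, 0.737, 2.53, 17.4, 19.6 and 17.5%. In the authors' TPM SEC61A1 and SEC61A2 were thus near equal in C4, and SEC61A2 was above SEC61A1 in the other 5 libraries. The TPM of SEC61A2 is uncertain where reads were shared with NUDT5, which overlaps it. SEC24A reversed, at 12.1, 13.7, 13.5, 30.3, 46.3 and 14.1% of the TPM of its set, highest in C5 and higher in C6 than in C2. STT3A held 0.0381, 0.0512, 0.0294, 0.349, 1.59 and 0.177%, with STT3B at 491, 510.4, 349, 229, 122 and 207 TPM. For 12 of the 51 genes the ratio of TPM to CPM varied more than 1.5-fold between libraries, with each library's common factor removed. Among them were STT3B, RPN2, SRP68, SEC63, SEC31A, SEC23A and SEC24B. For all 12 the TPM is not the count under a fixed length. The ratio varied 1.48-fold for SEC61A2, just under that limit, and 1.00-fold for SEC61A1. The common factor itself, relative to C1, was 1.08, 1.26, 2.36, 2.53 and 1.92 in C2 to C6, so the TPM of most genes is raised in C4, C5 and C6 against their CPM.

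The counts were lower when libraries were left out by their place in the marker check. Among C1, C2 and C3 alone, 0 of 42 tested genes were called by the chi-square test with the ratio of 2, against 10.3% of all genes. At an adjusted p under 0.05 without the ratio there were 22 of the 42, against 36.0% of all genes. At an unadjusted p under 0.05 there were 24, for which no share of all genes was computed. The largest ratio was 1.92, for RPN1. Among C4, C5 and C6 alone, 10 of 48 were called, against 40.2% of all genes. Called genes with their highest level in C5 numbered 9 of the 48, against 7.63% of all genes tested, namely SSR4, OSTC, COPB2, ARCN1, SEC31A, SEC23B, SEC24A, SEC24D and TMED2. The other called gene was COPZ2, highest in C6, at 2.75-fold.

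Genes outside the list were looked up in 8 further lists, 7 of the same route and 1 of its regulators, whose counts stand against 80.9% called among all genes tested. Of 6 other oligosaccharyltransferase genes tested 5 were called, 4 highest in C5. MAGT1, an oxidoreductase subunit of the STT3B form, was at 24.9, 29.6, 29.1, 134, 152 and 143 CPM, and TUSC3, its paralog, at 75.04, 88.6, 86.7, 94.1, 137 and 43.4 CPM, ratios of 6.12 and 3.15, the latter 1.82 without C6. TMEM258 was highest in C5 and OST4 in C6, ratios of 2.91 and 2.76. Of 20 genes that build the lipid-linked sugar donor 16 were called, 6 highest in C5, 5 in C4, 4 in C6 and 1 in C2. ALG14, part of the enzyme adding the second sugar, was at 5.15, 12.8, 9.46, 37.6, 55.0 and 31.3 CPM and the glucosyltransferase ALG6 at 11.6, 4.39, 2.65, 14.0, 19.4 and 15.6 CPM. Their ratios were 10.7, or 5.81 without C1, and 7.33, or 4.42 without C3. By contrast, DPM1, which makes dolichol phosphate mannose, and ALG13 were not called, with ratios of 1.44 and 1.73.

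Of 18 genes of membrane protein insertion, 8 were called, 4 highest in C6 and 2 each in C1 and C5, and 5 without C5 or without C6. EMC10 was at 1.72, 2.56, 4.16, 30.6, 38.9 and 26.2 CPM and the tail-anchor receptor gene GET1 at 8.15, 9.88, 10.6, 28.0, 53.3 and 30.3 CPM, against 199, 183, 182, 109.9, 88.9 and 143 CPM for EMC3, which was highest in C1. The ratios were 6.54 for GET1 and 2.24 for EMC3, or 3.72 and 1.81 without C5, and EMC7 was not called, with a ratio of 1.24. Of 12 other COPI and Arf genes 10 were called, 6 of them highest in C5, with ARFGAP3, which promotes GTP hydrolysis on Arf, at 40.3, 43.5, 45.0, 159, 225 and 90.8 CPM and ARF4 at 78.0, 66.2, 74.2, 147, 155 and 111 CPM. COPG2, the paralog of COPG1, was at 5006, 5855, 5578, 3044, 2120.2 and 819.5 CPM, a ratio of 7.14, or 2.76 without C6. Overlaps with other genes were not looked up for COPG2, so its level is uncertain where reads were shared. All 4 other COPII genes tested were called, 3 highest in C5, though 2 without C5. PDCD6, a calcium-binding partner of SEC31A, was at 3.43, 4.39, 4.92, 45.1, 48.8 and 49.96 CPM, TFG at 20.2, 15.7, 18.9, 39.8, 41.3 and 32.3 CPM and MIA2, which acts in cargo export at exit sites, at 31.7, 29.3, 32.2, 31.1, 45.9 and 20.7 CPM. The ratio of MIA2, 2.22, was 1.55 without C5 and 1.57 without C6.

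Of 16 other p24 and cargo receptors 12 were called, 5 highest in C6, 3 in C5 and 2 each in C1 and C4. TMED4 was at 42.9, 37.7, 47.3, 152, 229 and 113 CPM, a ratio of 6.06, or 4.04 without C5, the lectin LMAN2 at 6.00, 5.12, 7.19, 31.1, 28.9 and 36.8 CPM and BCAP31 at 8.15, 5.12, 7.19, 21.4, 30.2 and 41.9 CPM, while CNIH1 was not called, with a ratio of 1.72. Of 20 Golgi tether and fusion genes 14 were called, 8 highest in C5. RAB1A, the GTPase of transport from the endoplasmic reticulum, was at 87.5, 81.2, 107, 199, 223 and 199 CPM and the stacking protein gene GORASP2 at 114, 119, 121, 257, 275 and 179.6 CPM, with GOSR2 and TRAPPC5 at ratios of 3.22, or 2.01 without C5, and 4.41. Against 9.42% of all genes tested, called genes with their highest level in C5 thus made up 4 of 6, 6 of 20, 2 of 18, 6 of 12, 3 of 4, 3 of 16 and 8 of 20 tested genes of these 7 lists, in the order given here.

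Transcription factors and sensors known to regulate secretory genes were read beside these levels. XBP1, whose spliced form activates translocation and secretory genes in mouse plasma cells, was at 38.2, 44.6, 51.5, 127, 170.3 and 92.3 CPM, a ratio of 4.46-fold (95% interval 3.54 to 5.68). CREB3L2, which activates SEC23A in mouse chondrocytes, was highest in C4, at 3.86, 6.22, 4.54, 53.8, 31.4 and 18.7 CPM, a ratio of 14.0-fold (95% interval 7.11 to 31.2), or 8.14 without C4. SEC23A itself was lower in C4 than in C1, C2 and C3 in CPM but higher in the authors' TPM, at 12.3, 14.8, 15.2, 27.7, 28.7 and 9.73 TPM. The ratio of TPM to CPM of SEC23A varied 2.13-fold between libraries after the common factor of each was removed. CREB3L1 and CREB3 were also highest in C4, at 3.86, 5.12, 5.68, 24.1, 16.5 and 16.7 and 39.0, 38.8, 27.2, 97.6, 49.2 and 49.5 CPM, and so was ATF4, at 107, 118, 116, 243, 173 and 179 CPM. The calls of CREB3 and ATF4 were lost without C4, at ratios of 1.82 and 1.67.

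The sensors of unfolded proteins differed from each other. ERN1, which splices XBP1 RNA, was at 22.3, 26.0, 22.3, 17.5, 28.5 and 2.02 CPM, and EIF2AK3, the kinase that lowers translation, at 14.2, 17.6, 18.5, 27.1, 32.2 and 25.2 CPM, ratios of 14.1 and 2.28. The call of ERN1 rests on C6, and its ratio was 1.63 without it, while that of EIF2AK3 was 1.84 without C1 and 1.92 without C5. ATF6 was at 22.7, 16.1, 23.1, 24.9, 31.4 and 13.6 CPM, a ratio of 2.31 that was 1.83 without C5 and 1.95 without C6, and DDIT3 at 29.2, 31.8, 39.0, 48.1, 36.8 and 34.3 CPM, which was not called with a ratio of 1.65. In all, 8 of 9 tested regulators were called, against 80.9% of all genes, 4 highest in C5 and 4 in C4, against 9.42 and 11.4%. Gene counts do not tell spliced from unspliced XBP1.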

How the data were processed

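RNA of 6 sheep samples labelled as pituitary, libraries C1 to C6, was made into amplified full-length complementary DNA and sequenced by Nanopore, per the labels' protocols. The submitters' processing notes name minimap2 2.17-r941. Which tool counted the reads, on which build and annotation, and with what strand setting or filters is not given in the sources read for this text. Each of the 2 deposited tables has 26071 lines of features. The estimated counts, as deposited by the authors, carry no normalization, and 24.0 to 29.8% of a library's values were not whole, so they were rounded. The authors' TPM, as deposited, sum to 1000000 per library. Of the lines, 4 hold annotation text and were left out.

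The labels give no breed, so no library was put in a group, and replicate numbers only name libraries. The members and gene lists were chosen with earlier results of these data known. CPM is a gene's rounded count per 1000000 counts of its library. Every gene with at least 60 counts was tested by a chi-square test of homogeneity against the totals (scipy 1.17.1), with Benjamini-Hochberg adjustment over all 13248 genes tested. Features without a gene name were included among them. Calls needed an adjusted p under 0.05 together with a highest-to-lowest ratio of 2 or more. The p-values cover counting error between single libraries only. Ratios have exact conditional (Clopper-Pearson) intervals, levels and shares Wilson intervals. A count of 0 was taken as 3 counts in a ratio. The test was tried on simulated counts. Alternatives were other count minimums and ratios, edgeR 4.0.16 TMM factors, DESeq2 1.42.0 size factors, a total without 7 hormone genes, TPM, thinned counts, and left-out libraries.

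All genes of the list were named. Of each further list, up to 2 genes by median CPM and 2 by ratio among called genes with a median of at least 10 CPM were named, and every tested regulator. Of the 53 names, 51 had an entry in RefSeq's gene table of assembly ARS-UI_Ramb_v3.0, from which only names and neighbouring genes were taken. In it 14 overlap another gene, so that single counts are uncertain where reads were shared. Planned descriptions by protein length and promoter motif were not made, and no sequences were used here.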

Additional observations from a re-analysis of the deposited data

How the results depend on the processing

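The number of the 50 tested genes that differed between libraries, 38 as reported, was 10 without C1, C2 and C3 and 0 without C4, C5 and C6, and 33 to 37 with any single library left out. The number highest in C5 was between 24 and 28 with C1, C2, C3, C4 or C6 left out. Without C4, C5 and C6 the differences between the highest and lowest share fell, in percentage points, to 2.72 for COPZ2, 2.53 for KDELR3, 1.23 for SAR1A, 0.575 for SEC11A, 1.24 for SEC23B, 4.64 for SEC24A, 4.21 for SEC24B, 1.05 for SEC24C, 1.17 for SEC24D, 4.67 for SEC61A1 and 2.09 for STT3A, with overlapping intervals. Without C1, C2 and C3 this held for SAR1A at 1.54, SEC24A at 9.01, SEC24C at 4.63 and SEC24D at 4.16. With single libraries left out the difference ranged from 4.64 to 13.0 for SEC24A and from 4.33 to 18.7 for STT3A, from 4.07 to 7.87 for SEC24C, from 13.1 to 21.1 for SEC23B and from 11.7 to 19.5 for KDELR1, and in the authors' TPM SEC24A reversed, at 34.2.

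For class sums, ratios without C1, C2 and C3 were 1.67 for COPII, 1.03 for cargo and retrieval receptors and 1.16 for oligosaccharyltransferase, and without C4, C5 and C6 they were 1.33, 1.25 and 1.29. At a threshold of 3 their ratios of 2.01, 2.75 and 2.05 no longer passed. Single libraries left out gave 1.33 to 2.01 for COPII and 1.88 to 2.05 for oligosaccharyltransferase, whose ratio was 1.99 with thinned counts and reversed at 1.75 in TPM. The signal recognition sum passed with TMM (2.21), DESeq2 size factors (2.46), no hormone genes in the total (2.73), TPM (2.35) and a threshold of 1.5 (1.91), the translocon sum with DESeq2 size factors (2.19), no hormone genes (2.43), TPM (6.21) and a threshold of 1.5 (1.70), and signal peptidase in TPM (2.02). The causes were not tested. Counting each single gene under each alternative setting, the call was the same in 763 cases, gained in 31 and lost in 79. Of the 79, 26 came without C1, C2 and C3, 30 without C4, C5 and C6, and 10 from the threshold of 3. Of the 31, 10 came from the threshold of 1.5 and 10 from TPM. Depth limits SAR1A, SEC24C, SEC24D, STT3A and SSR1 most. No paired analysis was possible because the labels put no library in a group.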

Other observations

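The libraries fell into separate sets for the secretory genes, on values given above for each gene. For 30 of the 50 tested genes each of C4, C5 and C6 was above each of C1, C2 and C3, and for 8 each was below, while 22.8% and 38.8% of all genes tested had those orders. The 8 were SRP68, SEC61A2, SEC11C, COPA, COPG1, SAR1B, SEC23A and SEC24B. With hormone genes out of the total the numbers were 33 and 5, against 28.4 and 33.2% of all genes, and in the authors' TPM 36 and 3, against 39.1 and 22.7% of all genes. The sets are not given by the labels, and these orders were not tested.

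COPG2 was at 5006, 5855, 5578, 3044, 2120.2 and 819.5 CPM, and the 51 genes of the list with a row summed to 3834, 4408, 4232, 4941, 5614 and 5027 CPM. In the authors' TPM COPG2 was at 1435, 1901, 1904, 2034, 1287 and 395. Whether other genes overlap COPG2 was not looked up. GRIN2D, a glutamate receptor gene that overlaps KDELR1 in the RefSeq table, was at 24.9, 39.5, 31.4, 3.06, 1.24 and 8.07 CPM, an order unlike that of KDELR1, and DDX17, which overlaps KDELR3, at 22.7, 12.1, 17.8, 52.5, 55.8 and 59.0 CPM, higher in C4, C5 and C6 as KDELR3 was. Both were named after their values were seen. Whether reads of these overlapping genes were shared was not tested.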
